A study of Arabidopsis thaliana with 9 samples.

Results

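The comparison set leaves of the line labelled IAA26 stable against leaves of the line labelled IAA26 knockout, and its members are the 6 libraries whose column names hold P1 to P3 (stable) and O1 to O3 (knockout), out of 9 libraries in the series. Each group had 3 libraries, which the labels call biological replicates. All plants were Arabidopsis thaliana of the Shahdara accession, 9 weeks old, and leaf RNA was sequenced. The stable group came from a line that the labels call IAA26 stable and the knockout-labelled group from one that they call IAA26 knockout. The wild-type group was unmodified Shahdara. The series' title places the study in age-related resistance, and its design text names development and defence as the traits screened against the wild type. Neither the labels nor the table say how the IAA26 lines were made, how many independent lines each group came from or whether plants were pooled.

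IAA26 is one of the Aux/IAA proteins, short-lived repressors that bind auxin response factors (ARFs) and hold auxin-responsive genes down. Auxin joins an Aux/IAA to a TIR1/AFB receptor, and the repressor is then ubiquitinated and degraded. A stabilised form escapes this step and keeps repressing, whereas a loss-of-function allele removes the repressor. The labels do not say whether the stable line carries such a form.

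IAA26 itself (AT3G16500, TAIR10 chromosome 3, 5612203 to 5614803, minus strand) was present in every library. Its level was 12.7, 9.81 and 10.3 RPKM (exon reads scaled by exon length and library size) in stable leaves, 16.7, 17.2 and 12.4 RPKM in knockout-labelled leaves and 17.5, 18.5 and 20.3 RPKM in wild-type leaves. The highest stable library lay just above the lowest knockout-labelled one, so the groups overlapped. EdgeR's quasi-likelihood fit gave a log2 fold change of -0.31 (SE 0.12, Benjamini-Hochberg adjusted p = 0.122), which did not pass the threshold of 0.05. The transcript thus remained in the line labelled as a knockout. No label tells where the allele is altered, and RNA reads do not show whether protein is made.

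As raw counts, both exon and intron reads of IAA26 separated the lines, while the scaled exon level above overlapped. Exon reads numbered 806, 698 and 849 in stable leaves and 1231, 1387 and 978 in knockout-labelled leaves. Intron reads numbered 32, 21 and 26 in stable leaves, 70, 89 and 62 in knockout-labelled leaves and 66, 70 and 78 in wild-type leaves. As a share of all reads on the gene, intron reads were 3.82%, 2.92% and 2.97% in stable leaves, 5.38%, 6.03% and 5.96% in knockout-labelled leaves and 4.70%, 3.66% and 4.37% in wild-type leaves. The stable and knockout-labelled shares did not overlap, at 3.24% ± 0.504 and 5.79% ± 0.357 (SD, n = 3 each; exact two-sided permutation test, p = 0.1, the smallest that 3 against 3 can give). Scaled by library size, the intron reads of IAA26 were also lower in stable leaves without overlap. Of all 10523 tested genes with at least 50 intron reads in the 6 libraries, 19.1% were likewise lower without overlap. With or without overlap, 65.3% had fewer intron reads per scaled library in stable leaves. Neither percentage concerns the intron share of reads on a gene, for which no comparison with all genes is given.

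Across the transcriptome 19409 genes were tested and 1351 (6.96%) were called at an edgeR adjusted p under 0.05. Of these, 945 (4.87% of genes tested) were higher and 406 (2.09%) were lower in stable leaves. At least 2-fold differences made up 582 of the rises and 117 of the falls, and at least 4-fold differences 282 and 13. The values of the lines did not overlap for 6122 genes (31.5%), and 5935 genes had an unadjusted p under 0.05. The median log2 fold change of all genes was -0.0007. With library totals in place of TMM scaling, that median moved by -0.19 and the calls split into 635 higher and 869 lower, so the share of higher calls was 42.2% where TMM gave 69.9%.

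**Figure D1:**
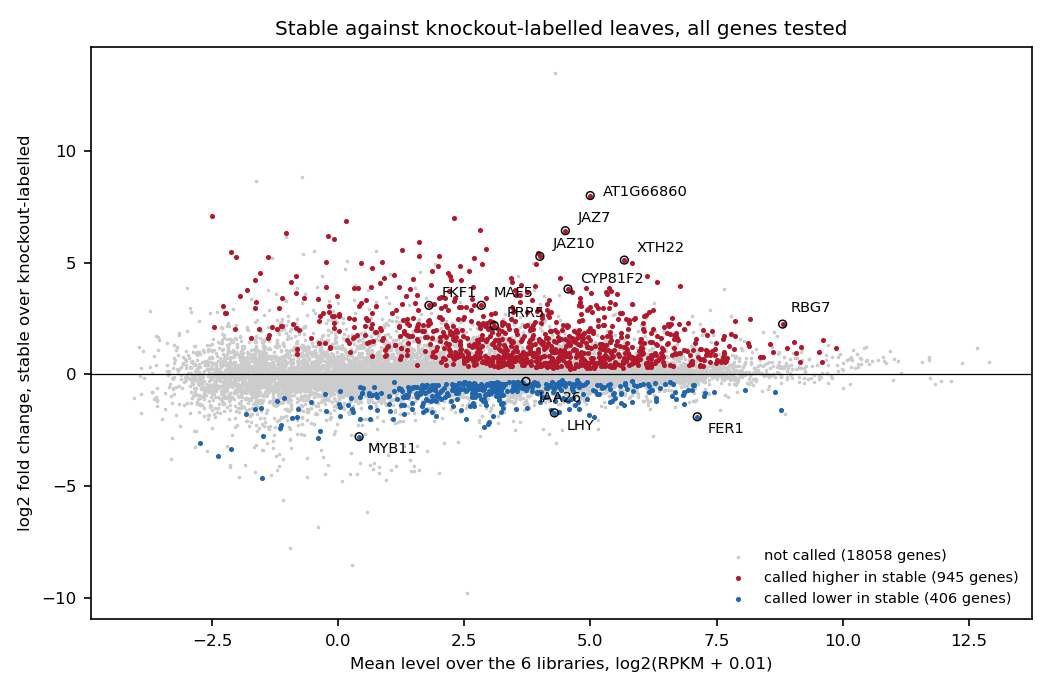
Log2 fold change of stable over knockout-labelled leaves (vertical axis) against the mean level of the 6 libraries as log2(RPKM + 0.01) (horizontal axis), 1 point per gene tested. Red points are the 945 genes called higher in stable, blue points the 406 called lower, grey points the genes not called, and circles mark genes named in the text, with IAA26 near 0.

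The libraries within each line differed from one another, and the count of calls varied with the library left out. On the first principal component, which held 44.3% of the variance, stable libraries scored -3.01, 87.8 and 71.5 and knockout-labelled libraries -56.7, -51.5 and -4.58, so that stable 1 and knockout-labelled 3 lay next to each other. On the second, with 18.7% of the variance, these 2 were the extremes of the 6 libraries, at 57.6 and -33.4. Without stable 1 the count of calls was 5241, without stable 2 it was 158 and without stable 3 it was 489. Leaving out a knockout-labelled library gave 3 calls without library 1, 8 without library 2 and 869 without library 3. The wild-type libraries, which share in the estimate of the spread, gave 758 calls without library 2 and 646 without library 3. DESeq2 called 3641 genes, the 6 libraries fitted alone gave 703, and leaving out stable 1 and knockout-labelled 3 together, chosen after the data were seen, gave 6176. All 1351 called genes kept their sign in each of the fits without 1 library in which they were tested. For 1349 of them the values of the lines did not overlap, so leaving out 1 library could hardly turn the sign. The kept sign is therefore no separate evidence for these calls. In the fits without knockout-labelled 1 or without knockout-labelled 2 the only members of the gene lists below that edgeR called were FKF1 and PRR5, with 3709 and 3984 of all genes at an unadjusted p under 0.05. Of the 100 list members called with all libraries, 15 were also called without stable 2, 44 without stable 3, 60 without knockout-labelled 3, 67 without wild type 2, 58 without wild type 3, 89 without wild type 1 and all 100 without stable 1.

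**Figure D2:**
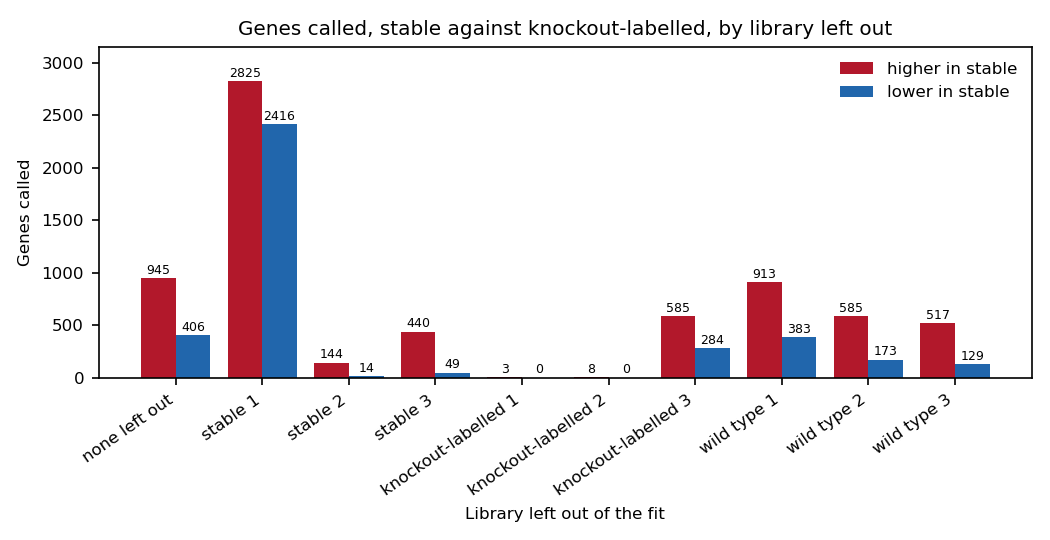
Number of genes called higher (red) and lower (blue) in stable against knockout-labelled leaves (vertical axis) with no library left out and with each of the 9 libraries left out in turn (horizontal axis). The counts run between 3 genes without knockout-labelled 1 and 5241 genes without stable 1.

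Exon reads per library ranged over 28585976 to 36684424 in stable leaves and 33066761 to 36547078 in knockout-labelled leaves. Leaf mesophyll markers were abundant throughout, with the Rubisco small subunit gene RBCS1A at 2171 to 4255 RPKM in stable leaves and 2234 to 3079 RPKM in knockout-labelled leaves. Seed storage genes (CRA1, CRU3, OLEO1) and the root genes WOX5, RHD6 and PLT1 had no read in the 6 libraries. Flower genes stood out in knockout-labelled 3, where the petal and stamen gene PI reached 8.44 RPKM and AP3 4.46 RPKM, against at most 0.952 and 0.323 RPKM in the other 5 libraries. The summed level of the 15 flower, meristem and seed markers was 4.56 to 10.02 RPKM in stable leaves, and 7.44, 8.13 and 35.5 RPKM in knockout-labelled leaves. In bulk tissue, fewer cells of a type and less RNA per cell cannot be told apart.

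FKF1, PRR5 and RBG7 were called in all 9 fits that left out 1 library, and no other gene was. FKF1, a blue-light-sensing F-box protein of the afternoon that frees flowering genes from their CDF repressors, was at 6.43, 6.50 and 5.43 RPKM in stable leaves, 0.677, 0.858 and 0.926 RPKM in knockout-labelled leaves and 0.163, 0.144 and 0.114 RPKM in wild-type leaves. Its lowest stable value was several times its highest knockout-labelled value, and the wild type was lower again (log2 fold change 3.09, SE 0.18, adjusted p = 0.00181). PRR5, a pseudo-response regulator that represses the morning genes CCA1 and LHY, was at 15.4, 13.8 and 11.7 RPKM in stable leaves, 2.74, 3.87 and 3.70 RPKM in knockout-labelled leaves and 0.421, 0.498 and 0.487 RPKM in wild-type leaves (log2 fold change 2.18, SE 0.15, adjusted p = 0.00252). RBG7, a clock-driven glycine-rich RNA-binding protein that also binds its own transcript, was at 672, 738 and 761 RPKM in stable leaves, 162, 169 and 192 RPKM in knockout-labelled leaves and 95.0, 89.2 and 76.2 RPKM in wild-type leaves (log2 fold change 2.25, SE 0.15, adjusted p = 0.00233). For all 3 genes the order of the groups was stable, knockout-labelled, wild type, with no overlap. Their intron reads separated the lines too: 63, 74 and 82 in stable against 4, 13 and 18 in knockout-labelled leaves for FKF1, and 10972, 9975 and 13650 against 2564, 2702 and 3493 for RBG7.

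The promoters of these 3 genes are printed because they hold the evening element, a motif through which morning MYB factors such as CCA1 repress evening genes. Each run is the 250 bases before the annotated gene start, read 5′ to 3′ on the gene's strand from the RefSeq TAIR10.1 genome, which is that of the Col-0 accession and not of Shahdara. Capitals mark AAAATATCT on either strand.
FKF1 (chr1:25508389-25508638, plus strand): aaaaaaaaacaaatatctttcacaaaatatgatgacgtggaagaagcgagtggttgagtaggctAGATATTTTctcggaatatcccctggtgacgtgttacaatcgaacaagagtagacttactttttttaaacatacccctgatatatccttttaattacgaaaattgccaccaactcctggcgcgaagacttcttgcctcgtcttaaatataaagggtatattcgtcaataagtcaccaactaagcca
PRR5 (chr5:8358547-8358796, minus strand): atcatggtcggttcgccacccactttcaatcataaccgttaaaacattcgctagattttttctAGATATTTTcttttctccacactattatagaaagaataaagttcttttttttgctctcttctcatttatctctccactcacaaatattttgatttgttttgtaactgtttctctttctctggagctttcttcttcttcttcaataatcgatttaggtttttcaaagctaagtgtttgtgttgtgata
RBG7 (chr2:9266558-9266807, minus strand): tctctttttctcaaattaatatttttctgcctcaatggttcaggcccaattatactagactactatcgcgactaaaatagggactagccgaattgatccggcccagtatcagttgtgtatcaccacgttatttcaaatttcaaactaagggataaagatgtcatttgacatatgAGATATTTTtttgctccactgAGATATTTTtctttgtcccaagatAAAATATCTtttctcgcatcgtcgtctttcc
The element began 186 bases before the start of FKF1 and 187 before that of PRR5, and occurred 3 times before RBG7. It was found before 53 of the 945 genes called higher (5.61%), 10 of the 406 called lower (2.46%) and 492 of the 19292 tested genes whose window could be read (2.55%). TOC1 and LUX held it as well, while no match lay in these windows of LHY and CCA1. The G-box CACGTG was not found in the windows of JAZ1, JAZ9, JAZ10, LOX3, LOX4, TAT3 and CYP79F1, nor the auxin response element TGTCTC in that of IAA26. These 7 windows do not stand for their lists. The G-box lay before 6 of the 34 jasmonate genes and 2 of the 16 aliphatic glucosinolate genes tested. Both shares were above the 7.48% of all tested genes, and that of iron genes, 6 of 15, was higher still. Of 4 other motifs searched on both strands, the W-box core TTGAC lay before 51.7% of genes called higher, 45.6% of those called lower and 44.9% of all. In the same order these shares were 9.31%, 9.11% and 7.48% for the G-box CACGTG, 13.1%, 12.8% and 13% for the C-repeat core CCGAC, and 9.42%, 10.6% and 10.5% for the auxin response element TGTCTC. These shares are descriptions of letters in a window, and no test was made of them.

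The clock genes that were called split in direction by the hour at which they are known to peak. Fold change was not compared with peak hour over the whole list. Of 23 tested, 6 rose and 5 fell in stable leaves, where 4.87% of all genes rose and 2.09% fell, the shares beside which the counts of every list stand. The median log2 fold change was 0.15, and -0.02 with library totals. The 6 that rose are evening or afternoon genes: FKF1, PRR5, PRR3, TOC1 and the evening complex gene LUX with its close relative BOA. The 5 that fell, CCA1, LHY, RVE8, LNK2 and PRR9, peak in the morning. LHY, a MYB repressor, was at 11.0, 6.50 and 7.23 RPKM in stable leaves, 35.2, 34.4 and 22.8 RPKM in knockout-labelled leaves and 140, 83.1 and 114 RPKM in wild-type leaves (log2 fold change -1.72, SE 0.25, adjusted p = 0.0153). Its partner CCA1 was at 87.4, 44.9 and 51.7 RPKM in stable leaves and 193, 187 and 132 RPKM in knockout-labelled leaves (log2 fold change -1.30, SE 0.27, adjusted p = 0.0329). TOC1, which represses both, was at 12.6, 14.3 and 11.4 RPKM in stable leaves and 4.56, 5.32 and 5.37 RPKM in knockout-labelled leaves (log2 fold change 1.53, SE 0.30, adjusted p = 0.031). For BOA the levels were at most 0.304 RPKM, and 72.4% of PRR9 reads, 76.0% of LUX reads and 79.1% of BOA reads were unique. Without stable 2 the calls in this list were FKF1 and PRR5 alone, and without stable 3 there were 3 rises and 2 falls. No label gives an hour of harvest, so it cannot be told apart from the line.

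Among flowering genes, 2 of 27 tested rose, near the 4.87% of all genes, and 3 fell, where 2.09% of all did, with a median of -0.26. EdgeR called 1 of the 27 without stable 2 or without stable 3. MAF5, a MADS-box floral repressor related to FLC, was at 9.52, 14.4 and 13.8 RPKM in stable leaves, 1.27, 1.87 and 1.96 RPKM in knockout-labelled leaves and 10.2, 6.19 and 8.47 RPKM in wild-type leaves (log2 fold change 3.09, SE 0.30, adjusted p = 0.00999). Here the knockout-labelled line was the low group, below both others. FLC itself varied within the lines, at 3.62, 12.2 and 14.8 RPKM in stable and 12.4, 3.64 and 22.5 RPKM in knockout-labelled leaves, and was not called. Those that fell were CDF3, a repressor of flowering targeted by FKF1, the phase-change gene AP2, and TSF, a close relative of the florigen FT. CDF3 had a log2 fold change of -0.69 (SE 0.14, adjusted p = 0.031), AP2 of -0.65 (SE 0.14, adjusted p = 0.0401) and TSF of -1.23 (SE 0.29, adjusted p = 0.0426). SPL5 rose, but only 34.2% of its reads were unique.

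**Figure D3:**
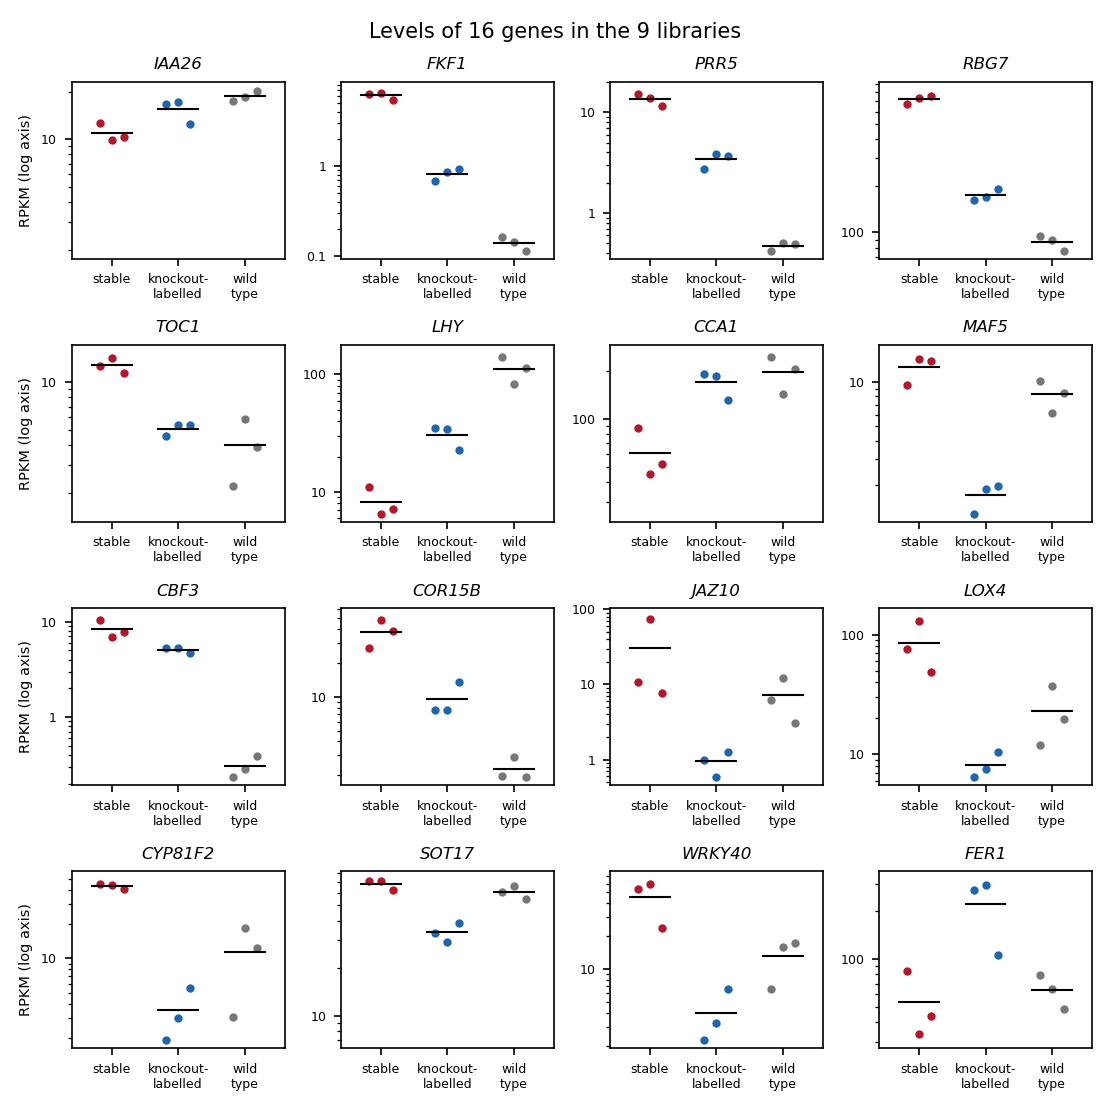
RPKM on a log axis (vertical) of 16 genes in stable (red), knockout-labelled (blue) and wild-type leaves (grey), 1 point per library in the order of replicates 1 to 3 and a black bar at each group's mean. FKF1, PRR5 and RBG7 fall into 3 separate levels, whereas IAA26 overlaps between stable and knockout-labelled leaves.

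Of 17 cold-response genes tested, 6 were higher in stable leaves and none was called lower. CBF factors are AP2-domain activators that bind the C-repeat in the promoters of COR genes, whose products protect membranes and proteins during freezing. The 6 were CBF1, CBF3, COR15B, COR78, KIN2 and RCI2A, where 4.87% of all genes rose. The median log2 fold change of the 17 was 1.26, and the values of 14 did not overlap in that direction, where 16.3% of all genes did so, while 1 did not overlap in the other. CBF3 was at 10.4, 6.91 and 7.70 RPKM in stable leaves, 5.34, 5.30 and 4.65 RPKM in knockout-labelled leaves and 0.234, 0.285 and 0.391 RPKM in wild-type leaves (log2 fold change 0.90, SE 0.17, adjusted p = 0.028). COR15B, a chloroplast protectant, was at 27.0, 47.6 and 38.1 RPKM in stable leaves and 7.54, 7.57 and 13.6 RPKM in knockout-labelled leaves (log2 fold change 2.18, SE 0.34, adjusted p = 0.0185). COR78, also known as RD29A, was at 68.4, 58.5 and 39.0 RPKM in stable leaves and 18.8, 23.8 and 16.7 RPKM in knockout-labelled leaves (log2 fold change 1.68, SE 0.27, adjusted p = 0.019). Its window of 250 bases before the gene start is shown because it holds the C-repeat core CCGAC 3 times, in capitals.
COR78 (chr5:21240467-21240716, plus strand): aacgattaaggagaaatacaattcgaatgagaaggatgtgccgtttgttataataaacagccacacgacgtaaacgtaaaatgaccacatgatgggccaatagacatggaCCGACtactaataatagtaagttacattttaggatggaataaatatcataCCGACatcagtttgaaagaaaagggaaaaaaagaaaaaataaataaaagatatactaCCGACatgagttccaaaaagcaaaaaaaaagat
The core lay before 5 of the 17 cold-list genes (29.4%), where 13% of all tested genes had it. Its share was higher among Aux/IAA genes (10 of 23, 43.5%) and xylem markers (2 of 6, 33.3%), and no test was made of these shares. There were 2 matches before COR15A and none in the window of COR15B, which overlaps COR15A. None of the 17 was called by edgeR without stable 2, without knockout-labelled 1 or without knockout-labelled 2, and 2 were without knockout-labelled 3.

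Of 14 abscisic acid and drought genes, 2 rose and 1 fell, where 4.87% of all genes rose and 2.09% fell, with a median of -0.13. RD29B, a neighbour of COR78 that responds to abscisic acid, and CYP707A3, which breaks the hormone down, had log2 fold changes of 2.61 (SE 0.46, adjusted p = 0.0238) and 2.62 (SE 0.62, adjusted p = 0.0456). HAB1, a phosphatase that holds the pathway off, had one of -1.20 (SE 0.28, adjusted p = 0.0453). Of the 9 fits without 1 library, HAB1 lost its call in 8, CYP707A3 in 7 and RD29B in 3. EdgeR called none of the 14 without stable 2, knockout-labelled 1 or knockout-labelled 2.

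Aliphatic glucosinolate genes rose at 14 of 16 tested. These genes build methionine-derived defence compounds of the mustard family. This is 87.5%, where 4.87% of all genes rose, and the median log2 fold change was 0.93. The 14 take in the regulators MYB29 and MYB76, the chain-elongation enzymes BCAT4 and MAM1, the transporter BAT5, and core-structure enzymes from CYP79F1 to the sulphotransferases SOT17 and SOT18. CYP79F1, which commits elongated methionine to the pathway, was at 315, 276 and 278 RPKM in stable leaves, 143, 108 and 164 RPKM in knockout-labelled leaves and 210, 231 and 244 RPKM in wild-type leaves (log2 fold change 1.25, SE 0.17, adjusted p = 0.0135). SOT17 was at 70.9, 71.5 and 62.6 RPKM in stable leaves, 33.5, 29.1 and 38.8 RPKM in knockout-labelled leaves and 60.9, 66.5 and 54.7 RPKM in wild-type leaves (log2 fold change 1.21, SE 0.14, adjusted p = 0.0132). For both genes the 2 lines separated without overlap. MYB28, the main activator of the pathway, was at 115, 63.3 and 88.8 RPKM in stable leaves and 97.4, 101 and 94.3 RPKM in knockout-labelled leaves and was not called. The count was 3 without stable 2 and 8 without stable 3.

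Sulphur supply genes, which provide the reduced sulphur and the activated sulphate that glucosinolates need, rose at 6 of 13 tested, where 4.87% of all genes rose, with a median of 0.86. APR1, which reduces activated sulphate, was at 226, 172 and 179 RPKM in stable leaves and 118, 128 and 116 RPKM in knockout-labelled leaves (log2 fold change 0.86, SE 0.09, adjusted p = 0.00999). APK, the kinase that makes the sulphate donor for SOT enzymes, was at 190, 222 and 200 RPKM in stable leaves and 113, 96.7 and 128 RPKM in knockout-labelled leaves (log2 fold change 1.06, SE 0.15, adjusted p = 0.016). Wild-type leaves had 168, 183 and 184 RPKM of APR1 and 177, 192 and 171 RPKM of APK. For both genes the knockout-labelled line was thus the low group, below every stable and wild-type library. The other genes called were SIR, APS1, SULTR4;2 and SHM7. In all, 1 of the 13 was called without stable 2 and 3 without stable 3 or without wild type 2.

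On the tryptophan-derived side, 3 of 10 indole glucosinolate and camalexin genes rose, where 4.87% of all genes did, with a median of 1.65. CYP81F2, which modifies indole glucosinolates for defence, was at 45.3, 44.0 and 41.2 RPKM in stable leaves, 1.90, 3.03 and 5.54 RPKM in knockout-labelled leaves and 3.09, 18.4 and 12.4 RPKM in wild-type leaves (log2 fold change 3.82, SE 0.64, adjusted p = 0.0212). The 3 stable values were close to each other and far above the rest. MYB51, an activator of the branch, had a log2 fold change of 1.93 (SE 0.41, adjusted p = 0.0364), and PEN2, the myrosinase that activates its products, one of 0.80 (SE 0.12, adjusted p = 0.0166). EdgeR called none of the 10 without stable 2, and the median was then 0.88.

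Of 34 jasmonate genes tested, 15 rose, where 4.87% of all genes did, with a median log2 fold change of 1.73. Jasmonate is a wound and herbivory hormone made from plastid lipids, and JAZ proteins repress its responses and are themselves induced by it. On the synthesis side those that rose were LOX3, LOX4, AOS and AOC2. LOX4, a lipoxygenase, was at 75.4, 130 and 48.3 RPKM in stable leaves, 6.40, 7.46 and 10.4 RPKM in knockout-labelled leaves and 12, 36.9 and 19.8 RPKM in wild-type leaves (log2 fold change 3.6, SE 0.53, adjusted p = 0.016). Among repressors, JAZ1, JAZ3, JAZ5, JAZ7, JAZ8, JAZ9 and JAZ10 rose. JAZ7 was at 18.4, 99.2 and 16.6 RPKM in stable leaves and 0.755, 0.314 and 0.770 RPKM in knockout-labelled leaves (log2 fold change 6.43, SE 1.01, adjusted p = 0.0185). JAZ10 was at 10.9, 74.4 and 7.71 RPKM in stable leaves and 0.994, 0.583 and 1.25 RPKM in knockout-labelled leaves (log2 fold change 5.28, SE 1.07, adjusted p = 0.0317). In both, stable 2 was the highest library by far, and stable 1 and 3 were still above every knockout-labelled value. In wild-type leaves JAZ10 was at 6.25, 12.2 and 3.06 RPKM, overlapping the stable line. JAZ7, at most 10.5 RPKM there, lay between the lines. Over the list, mean log2 CPM less its 9-library mean was 0.153, 1.62 and 0.435 in stable leaves. It was 0.437, 0.791 and -0.248 in wild-type leaves and -1.03, -1.34 and -0.815 in knockout-labelled leaves. The knockout-labelled line was thus the low group, while stable and wild-type leaves overlapped. The remaining calls were the hormone-inactivating CYP94B3 and CYP94C1, the tyrosine aminotransferase TAT3 and ERF1. The output genes VSP2 and PDF1.2 were not called, at 7.64, 60.9 and 16 RPKM and 3.72, 26.9 and 164 RPKM in stable leaves, against 2.78, 2.34 and 12.9 RPKM and 26.3, 8.39 and 66.3 RPKM in knockout-labelled leaves. The count of calls was 6 without stable 2, where the median was 1.09, 5 without knockout-labelled 3 and 9 without wild type 3.

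In the pattern-triggered immunity list 6 of 17 rose, where 4.87% of all genes did, with a median of 0.49: the kinases BIK1 and MPK3 and the factors WRKY22, WRKY33, WRKY40 and WRKY53. WRKY40 was at 53.6, 60.2 and 23.8 RPKM in stable leaves, 2.24, 3.2 and 6.58 RPKM in knockout-labelled leaves and 6.64, 15.9 and 17.2 RPKM in wild-type leaves (log2 fold change 3.70, SE 0.57, adjusted p = 0.0181). MPK3, a kinase activated by microbial patterns, was at 255, 184 and 162 RPKM in stable leaves and 120, 128 and 107 RPKM in knockout-labelled leaves (log2 fold change 0.95, SE 0.16, adjusted p = 0.0201). In the salicylic acid list 5 of 21 rose (PR5, WRKY18, SAG101, NDR1 and GRX480), with a median of 0.92. GRX480, a glutaredoxin induced by salicylic acid, was at 69.2, 124 and 31.6 RPKM in stable leaves and 8.54, 8.04 and 11.1 RPKM in knockout-labelled leaves (log2 fold change 3.23, SE 0.50, adjusted p = 0.0183). ICS1, which makes most of the hormone, was at 9.12, 10.02 and 8.58 RPKM in stable leaves and 8.51, 11.0 and 9.90 RPKM in knockout-labelled leaves and was not called. PR1, the usual marker, was at 12.4, 7.78 and 9.24 RPKM in stable leaves and 0.564, 1.86 and 7.67 RPKM in knockout-labelled leaves, with an adjusted p of 0.16. Without stable 2 edgeR called 2 salicylic acid genes and no pattern-triggered gene, and without knockout-labelled 3 it called 3 and 2.

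**Figure D4:**
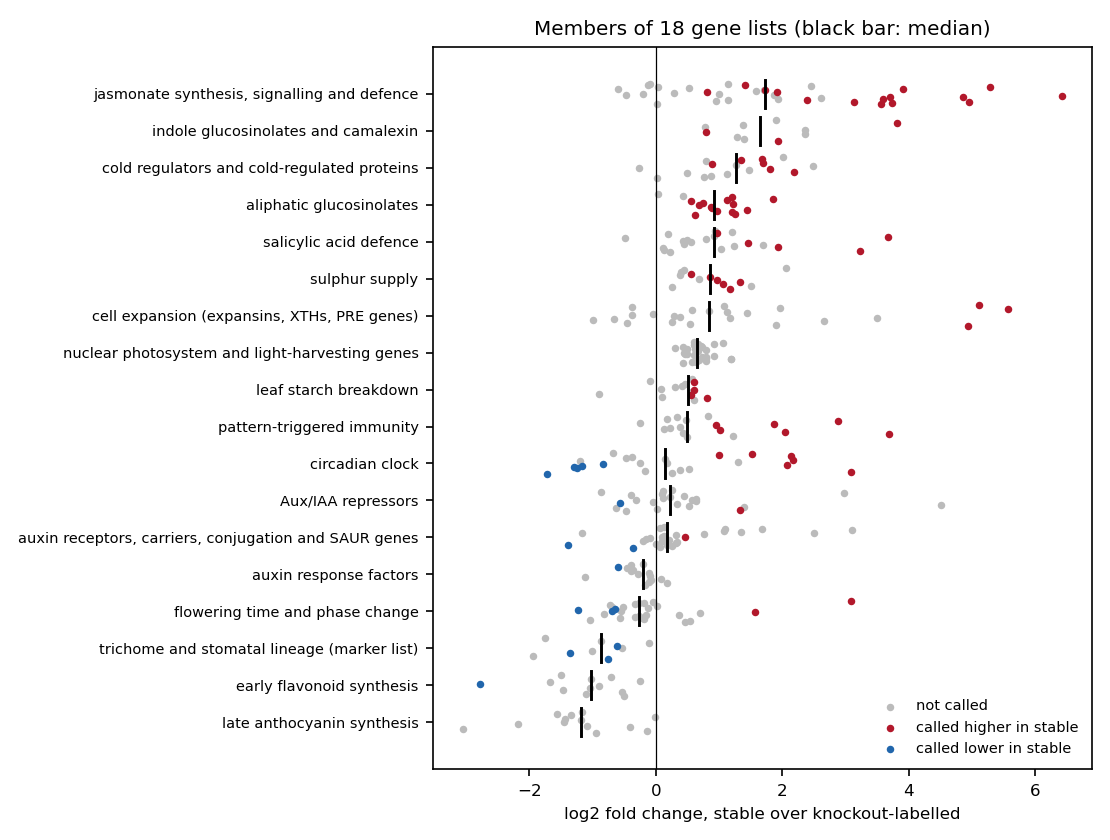
Log2 fold change of stable over knockout-labelled leaves (horizontal axis) for the tested members of 18 gene lists (vertical axis), 1 point per gene, with the median as a black bar. Red points were called higher and blue points lower in stable; 14 of 16 aliphatic glucosinolate genes are red, and no photosystem gene is coloured.

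Of 23 genes of the Aux/IAA family, to which IAA26 belongs, 1 rose and 1 fell, which is 8.70% where 6.96% of all genes were called. At an unadjusted p under 0.05 there were 12, DESeq2 called 7, and without stable 1 edgeR called 6 higher and 3 lower. IAA3 was at 40.2, 76.6 and 68.8 RPKM in stable leaves and 25.1, 27.9 and 32.7 RPKM in knockout-labelled leaves (log2 fold change 1.33, SE 0.26, adjusted p = 0.0303), with 84.1% of its reads unique. IAA13 was at 19.1, 11.9 and 15.6 RPKM in stable leaves and 27.4, 28.6 and 22.6 RPKM in knockout-labelled leaves (log2 fold change -0.57, SE 0.14, adjusted p = 0.0453). IAA29, which auxin and shade induce, was at 5.01, 17.2 and 13.5 RPKM in stable leaves and 0.836, 0.806 and 3.56 RPKM in knockout-labelled leaves, with an adjusted p of 0.0543. One of 15 ARF genes fell (6.67%, near the 6.96% of all genes called), with 5 at an unadjusted p under 0.05, 3 called by DESeq2 and 6 called lower by edgeR without stable 1. This was ARF8, at 15.2, 10.3 and 13.4 RPKM in stable leaves and 22.6, 22.7 and 21.8 RPKM in knockout-labelled leaves (log2 fold change -0.60, SE 0.12, adjusted p = 0.0338). Among 27 receptor, carrier, conjugation and SAUR genes the calls included the receptors AFB4, which rose, and AFB3 (72.3% of reads unique), which fell. The medians of the Aux/IAA and the receptor lists were 0.22 and 0.18 with TMM scaling and 0.02 and -0.01 with library totals, so the sign of the receptor median depends on the scaling.

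Cell expansion genes gave 3 calls among 23 tested, all rises of xyloglucan-remodelling enzymes, where 4.87% of all genes rose, with a median of 0.85. XTH22 was at 10.8, 176 and 109 RPKM in stable leaves, 1.67, 2.93 and 5.48 RPKM in knockout-labelled leaves and 1.47, 3.14 and 2.99 RPKM in wild-type leaves (log2 fold change 5.11, SE 1.01, adjusted p = 0.0307). Stable 1 stood well below the other stable libraries but above every knockout-labelled one. XTH33 and XTH18 had log2 fold changes of 4.93 (SE 1.11, adjusted p = 0.0402) and 5.57 (SE 1.07, adjusted p = 0.0293). The XTH18 value rests on 3, 0 and 13 reads in knockout-labelled leaves. The median moved to 1.57 without knockout-labelled 3 and to 0.48 without stable 2. Among 14 light and shade regulators, ATHB2, induced by shade, rose (log2 fold change 1.72, SE 0.38, adjusted p = 0.0395) and HY5, a factor that promotes light responses, fell (log2 fold change -1.54, SE 0.35, adjusted p = 0.0406). These calls were 14.3% of the list, where 6.96% of all genes were called. Of the 9 fits without 1 library, ATHB2 lost its call in 8 and HY5 in 5.

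All 30 nuclear photosystem and light-harvesting genes had a log2 fold change above 0, with a median of 0.66, yet edgeR called 0 of them, with 8 at an unadjusted p under 0.05 and 1 called by DESeq2. LHCB1.1, an antenna protein, was at 569, 2486 and 2401 RPKM in stable leaves and 654, 828 and 1331 RPKM in knockout-labelled leaves. Stable 1 thus lay below every knockout-labelled library, and without it 27 of the 30 were called, at a median of 0.95, while the median was 0.44 without stable 2. Of 19 Calvin cycle genes edgeR called 0, with 5 at an unadjusted p under 0.05 and 3 called by DESeq2, and 12 were called without stable 1.
Starch breakdown genes rose at 4 of 14 (PWD, AMY3, PHS2 and LSF1), where 4.87% of all genes rose, with a median of 0.51. PWD, which phosphorylates starch so that it can be degraded, was at 40.1, 35.5 and 35.9 RPKM in stable leaves, 29.7, 29.8 and 25.0 RPKM in knockout-labelled leaves and 17.9, 15.6 and 15.3 RPKM in wild-type leaves (log2 fold change 0.60, SE 0.09, adjusted p = 0.0176). The count was 1 with library totals and 0 without stable 2.

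All 12 early flavonoid genes had a log2 fold change below 0, with a median of -1.03, and 1 fell, where 2.09% of all genes did. The median was -0.49 without knockout-labelled 2, and -1.67 without stable 1, where edgeR called 5. This was MYB11, an activator of flavonol synthesis, at 0.499, 0.128 and 0.277 RPKM in stable leaves and 2.18, 3.5 and 1.37 RPKM in knockout-labelled leaves (log2 fold change -2.78, SE 0.61, adjusted p = 0.0383). The 13 late anthocyanin genes were also all below 0, with a median of -1.18, and edgeR called 0, with 0 at an unadjusted p under 0.05 and 0 called by DESeq2. Their levels split across the groups: DFR was at 101, 0.942 and 1.48 RPKM in stable leaves, 60.8, 267 and 5.20 RPKM in knockout-labelled leaves and 3.43, 11.9 and 155 RPKM in wild-type leaves. Stable 1, knockout-labelled 1 and 2 and wild type 3 were the high libraries. Without stable 1 the median was -5.30 and 1 gene was called.

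Of 9 trichome and stomatal lineage genes tested, 3 fell, where 2.09% of all genes did, with a median of -0.88, and the values of 7 did not overlap in that direction, where 15.3% of all genes did so. GL2, which drives trichome and epidermal fate, was at 1.53, 0.894 and 1.22 RPKM in stable leaves, 3.6, 4.27 and 2.75 RPKM in knockout-labelled leaves and 2.21, 2.00 and 1.43 RPKM in wild-type leaves (log2 fold change -1.36, SE 0.22, adjusted p = 0.0201). FMA, which fixes guard-cell fate, was at 9.73, 9.09 and 9.43 RPKM in stable leaves and 17.0, 18.9 and 13.9 RPKM in knockout-labelled leaves (log2 fold change -0.62, SE 0.14, adjusted p = 0.0431). MYB60, a guard-cell factor, had a log2 fold change of -0.75 (SE 0.14, adjusted p = 0.0286). MYB60 was at 7.06, 5.77 and 6.43 RPKM in stable leaves, 13.4, 14.2 and 9.65 RPKM in knockout-labelled leaves and 8.27, 8.19 and 6.69 RPKM in wild-type leaves. The summed level of the 11 markers was 24.5 to 25.8 RPKM in stable leaves and 40.4 to 53.8 RPKM in knockout-labelled leaves. In wild-type leaves it was 35.2, 32.3 and 26.2 RPKM, so the knockout-labelled line was the high group. The part of this sum in other results was not tested. Without stable 2 or stable 3 edgeR called none of the 9, with 3653 and 4441 genes overall at an unadjusted p under 0.05.

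Iron and senescence genes each moved both ways. FER1, a chloroplast ferritin that stores iron, was at 83.7, 33.4 and 43.4 RPKM in stable leaves, 274, 293 and 107 RPKM in knockout-labelled leaves and 79.2, 64.6 and 48.6 RPKM in wild-type leaves (log2 fold change -1.89, SE 0.42, adjusted p = 0.0389). Here the knockout-labelled line was the high group. ORG2, a bHLH factor of iron deficiency, had a log2 fold change of 4.01 (SE 0.83, adjusted p = 0.0337). It was at 2.11, 8.19 and 9.67 RPKM in stable leaves, 0.235, 0.239 and 0.952 RPKM in knockout-labelled leaves and 17.9, 6.90 and 7.09 RPKM in wild-type leaves. For ORG2 the knockout-labelled line was the low group, with 9, 10 and 39 reads. FER1 and ORG2 were the 2 calls among 15 iron genes (13.3%, where 6.96% of all genes were called). Neither was called without stable 2, stable 3, knockout-labelled 1, knockout-labelled 2 or wild type 3. Where 4.87% of all genes rose and 2.09% fell, 3 of 20 senescence genes rose (SAG14, SAG21 and SEN1) and 1 fell. That was NAP, a NAC factor that promotes senescence, at 45.5, 21.1 and 25.8 RPKM in stable leaves and 83.0, 101 and 63.7 RPKM in knockout-labelled leaves (log2 fold change -1.25, SE 0.24, adjusted p = 0.0286).

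The remaining lists gave few or no calls. Of 6 xylem genes 1 rose, where 4.87% of all genes did. That was VND7, a NAC factor of vessel fate, at 0.314, 0.352 and 0.381 RPKM in stable leaves and 0.017, 0.0777 and 0.0794 RPKM in knockout-labelled leaves (log2 fold change 2.73, SE 0.67, adjusted p = 0.0485). The summed level of the xylem markers was 3.6, 13.4 and 16.7 RPKM in stable leaves and 2.5, 3.4 and 9.7 RPKM in knockout-labelled leaves, so the lines overlapped, and its part in other results was not tested. EdgeR called 0 of 15 heat shock genes (6 at an unadjusted p under 0.05, 4 called by DESeq2), 0 of 21 RNA silencing and tobamovirus host factor genes (6 and 1), 0 of 9 dividing-cell markers (0 and 0), 0 of 7 phloem markers (1 and 0), 0 of 6 flower, meristem and seed markers (1 and 1) and 0 of 1 root marker (0 and 0). HSP70, a chaperone, was at 87.1, 32.1 and 33.0 RPKM in stable leaves and 185, 171 and 106 RPKM in knockout-labelled leaves, with an adjusted p of 0.0804.

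Among genes outside the lists, the steepest rises were led by AT1G66860, at 5.99, 167 and 17.9 RPKM in stable leaves and 0.447, 0.102 and 0.349 RPKM in knockout-labelled leaves (log2 fold change 8, SE 1.52, adjusted p = 0.029). In wild-type leaves it was at 7.67, 15.7 and 5.16 RPKM, above every knockout-labelled library and within the range of the stable ones or just below it. JAZ13, BT2, EXL1_1, AT5G12340, MAPKKK21, ERF109, AT2G44578 and ERF013 followed, with log2 fold changes between 5.29 and 7. Several of these were close to 0 in knockout-labelled leaves: BT2 had 0, 1 and 5 reads there, 103, 360 and 132 in stable leaves and 149, 38 and 14 in wild-type leaves. Only 50.7% of ERF109 reads were unique. The steepest falls after MYB11 were smaller, from -2.36 for AT3G09450 to -1.86 for AT2G46940. UGT75D1, a glucosyltransferase, was at 21.4, 7.65 and 10.2 RPKM in stable leaves and 65.7, 54.3 and 41.6 RPKM in knockout-labelled leaves (log2 fold change -1.88, SE 0.37, adjusted p = 0.0307). AKR4C9, an aldo-keto reductase, was at 2.95, 0.571 and 1.04 RPKM in stable leaves and 5.89, 5.71 and 6.65 RPKM in knockout-labelled leaves (log2 fold change -1.87, SE 0.44, adjusted p = 0.0439).

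Intron reads, to which unspliced transcripts contribute, were set beside the exon calls as a second count from the same libraries. Of 554 genes called higher that had at least 50 intron reads, 499 (90.07%) also had more intron reads in stable leaves, where 34.7% of all 10523 genes did. Of 211 called lower, 204 (96.7%) had fewer, where 65.3% of all genes did. The whole set thus leaned lower in stable leaves on this measure, and intron and exon reads share their libraries.

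**Figure D5:**
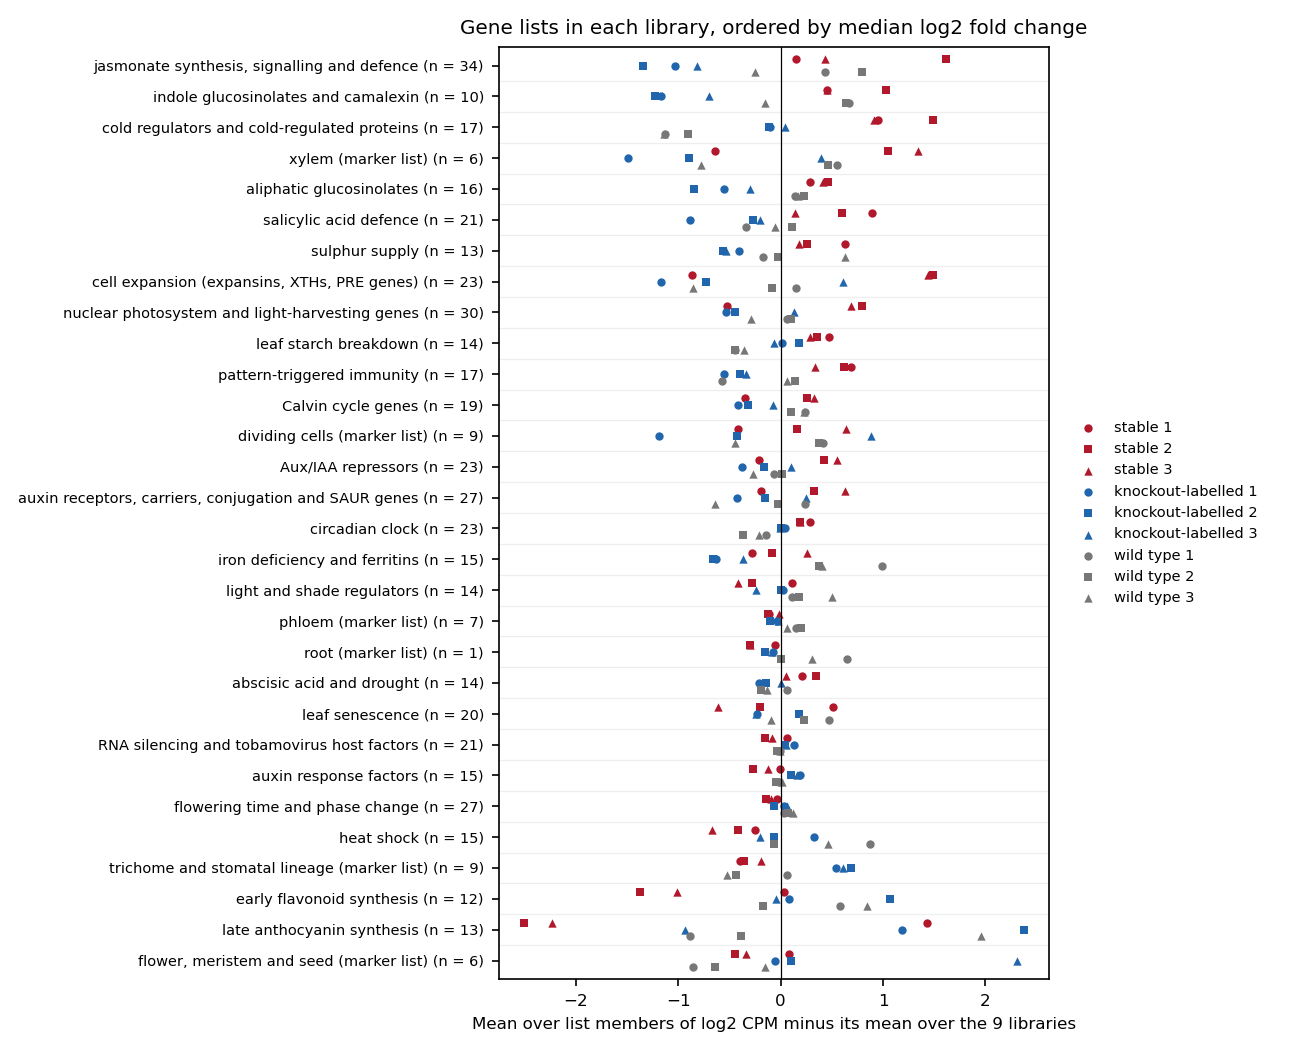
Mean over the tested members of each of 30 gene lists (vertical axis) of log2 CPM minus its mean over the 9 libraries (horizontal axis), for stable (red), knockout-labelled (blue) and wild-type libraries (grey), with a marker shape per replicate. In the cold list all stable libraries lie to the right of all knockout-labelled ones, while in the photosystem list stable 1 lies with knockout-labelled 1 and 2.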

How the data were processed

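Leaf RNA from 9 libraries was compared, 3 per group. Per the file headers, the authors deposited counts of exon, unique exon, gene, intron and exon-exon reads per gene, from paired, trimmed reads. The authors also deposited RPKM values, used here for levels and not for tests, and the exon length of each gene. According to the submitters' processing notes, reads were placed on TAIR10. Neither labels nor headers name an aligner or counter, or say if strand was used, and antisense or overlapping genes may therefore share reads. Columns were matched to samples by title.

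Total exon reads were filtered with filterByExpr (minimum count 10, minimum total 15, minimum share 0.7), scaled by TMM and fitted in 1 model of all 9 libraries with edgeR 4.0.16 in R 4.3.3 (glmQLFit, glmQLFTest), with Benjamini-Hochberg adjustment over 19409 genes and a threshold of 0.05. A standard error is the log2 fold change divided by the square root of F. All p values measure the spread between libraries, which the labels call biological replicates without naming plants. DESeq2 1.42.0, other scalings, no filter, unique reads, the 6 libraries alone, a replicate block and leaving out each library were the alternatives, and 1 further alternative was chosen after the data were seen. The fit was also run on simulated counts, and the outcome is not given here. Library values were compared by exact permutation, which cannot go under p = 0.1.

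The comparison and its 30 gene lists were chosen with earlier results of these data known. The lists held 529 entries, of which 523 carried a matching name, 491 were tested and 100 were called. IAA26, the 12 largest rises and 12 largest falls with no overlap and a mean of at least 1 RPKM, and 3 called members of each list at most were named by rule. One named gene is not reported here. RBG7 and the other list members were named after their values were seen, as were the 18 genes whose promoters were each read for 1 motif. Windows of 250 bases were read from RefSeq TAIR10.1, and 32520 of 32833 genes had the same start and end there. Python 3.11.15, pandas 2.3.3 and matplotlib 3.10.9 were used for tables and figures.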

Additional observations from a re-analysis of the deposited data

How the results depend on the processing

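The count of called genes, 1351 (945 higher, 406 lower), stayed within 1.5 times of that value with DESeq2's size factors, unique exon reads, no filter on low counts and the replicate block. It was 703 (552 and 151) with the 6 libraries alone, 3641 (2208 and 1433) with DESeq2, and 6176 (3307 and 2869) without both stable 1 and knockout-labelled 3, an alternative chosen after the data were seen. With library totals 869 genes were lower. Leaving out 1 library gave 3 to 5241 calls, 3 to 2825 of them higher and 0 to 2416 lower. The cause was not tested. IAA26 was past the threshold only without both stable 1 and knockout-labelled 3, at -0.47 (edgeR adjusted p = 0.0128), and its adjusted p ranged between 0.0128 and 0.338 over all alternatives. Over the named genes and all alternatives, 1020 values kept their direction and side of the threshold, 388 lost the call, 18 gained one and 2 reversed. Both reversals were of KN, a cytokinesis gene that was not called: it was at -0.74, ranged between -1.02 and 0.0493 with 1 library left out, the highest without knockout-labelled 3, and was at 0.24 without both libraries. Deviations of same-numbered stable and knockout-labelled libraries from their group means correlated at 0.492, -0.257 and 0.516. The labels name no pairing, and whether same-numbered libraries were handled together was not tested. The replicate block gave 1232 calls (833 and 399), 939 of them also called without it. Libraries 1 and 3 of each line correlated best with their own number, and library 2 of each line did not. Depth limits genes with few reads: XTH18 and BT2 each had 0 reads in 1 knockout-labelled library.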

Other observations

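Single libraries carried extreme levels of a few genes. SAG12, a cysteine protease of late senescence, was at 52.6, 1.05 and 0.272 RPKM in stable leaves, 1.36, 394 and 3.54 RPKM in knockout-labelled leaves and 12.1, 1.61 and 0.322 RPKM in wild-type leaves. The meristem genes STM and KNAT1 were at 0.865 and 0.833 RPKM in knockout-labelled 2 and 1.54 and 1.89 RPKM in knockout-labelled 3, and at most 0.133 and 0.163 RPKM in the other libraries of both lines.

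UGT74E1, a glucosyltransferase gene named here after its values were seen, was at 6.76, 10.3 and 8.71 RPKM in stable leaves, 0.340, 0.294 and 0.619 RPKM in knockout-labelled leaves and 2.71, 3.56 and 2.73 RPKM in wild-type leaves. Its log2 fold change was 4.55 (SE 0.35, edgeR adjusted p = 0.00367). It was called without knockout-labelled 2 (adjusted p = 0.0311), and without knockout-labelled 1 its adjusted p was 0.0565.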
